A study of Mus musculus with 18 samples.

Results

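Cytosolic heat shock chaperones were followed in mouse liver as 10 genes: the Hsp70 genes *Hspa1a*, *Hspa1b* and *Hspa8*, the Hsp110 gene *Hsph1*, the Hsp90 genes *Hsp90aa1* and *Hsp90ab1*, the J-domain genes *Dnaja1* and *Dnajb1*, the small heat shock gene *Hspb1* and the nucleotide exchange factor gene *Bag3*. Each was taken by its gene name, and all 10 were found among the 37303 genes of the deposited expression table. The livers came from 18 C57BL/6J mice that were wild type (WT), lacked *Gcn2* (*Gcn2*-/-) or lacked *Atf4* (*Atf4*-/-), and both deletions were homozygous and affected the whole body. GCN2 is the kinase that senses uncharged tRNA and ATF4 is the transcription factor made when it is active. Mice of every strain received 8 daily intraperitoneal injections of asparaginase (ASNase, the leukemia drug that depletes asparagine and glutamine from blood) at 3 IU per gram body weight or of phosphate buffered saline (PBS), and liver was taken 7.5 h after the last injection.

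The 6 groups were WT PBS, WT ASNase, *Gcn2*-/- PBS, *Gcn2*-/- ASNase, *Atf4*-/- PBS and *Atf4*-/- ASNase, with 3 libraries each. The labels give an age of 8 to 16 weeks for the mice of every group. Of the 3 mice, 1 was male in WT PBS, *Gcn2*-/- PBS and *Gcn2*-/- ASNase, and 2 were male in WT ASNase, *Atf4*-/- PBS and *Atf4*-/- ASNase. Poly-A RNA of whole liver was sequenced, so that fewer cells of a type and less RNA per cell cannot be told apart. The table holds for each gene and group 1 value in FPKM (read fragments scaled to transcript length and to the mapped total of the library, so a level per length) that Cuffdiff estimated from the 3 libraries together, and the lower and upper bound of its interval. Where 2 groups that were compared had different numbers of males, the sex of the mice and the group cannot be told apart. No value of a single mouse stood behind the results. The comparisons therefore carry no p-value and no replicate check, and differences were judged against the intervals.

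Cytosolic chaperones hold newly made and damaged proteins in a form that can fold. Hsp70 proteins bind exposed hydrophobic stretches in a cycle of ATP hydrolysis that J-domain proteins start and nucleotide exchange factors end, and Hsp90 proteins take over kinases, steroid receptors and other clients at a later stage of folding. When unfolded protein builds up in the cytosol, heat shock factor 1 (HSF1) is released from chaperones and switches on the inducible members of the group, while *Hspa8* and *Hsp90ab1* are made all the time. Unfolded protein in the endoplasmic reticulum (ER) is handled by a separate set of chaperones under other transcription factors.

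None of the 10 chaperone genes had separate intervals between ASNase and PBS within any of the 3 strains. Of all genes 1.01%, 4.24% and 8.03% had them in WT, *Gcn2*-/- and *Atf4*-/- livers, and a count of 0 among so few members cannot be told from these shares. For 2 of the genes no other outcome was possible. *Hspa1a* never reached the expression limit, and *Hsp90aa1*, which did reach it, had a lower bound of 0 in all 6 groups. The differences that exceeded the intervals lay between strains and concerned 2 genes. *Hspa1b*, an inducible Hsp70, was 3.43-fold lower in *Gcn2*-/- PBS than in WT PBS and 3.82-fold lower in *Atf4*-/- ASNase than in WT ASNase, and *Hspb1* (HSP25) was 3.52-fold higher in *Atf4*-/- PBS than in *Gcn2*-/- PBS. Over the 9 comparisons made, 2 of the 9 members that reached the expression limit had separate intervals at least once (22.2%), against 13.5% of the 10056 genes that reached it. A gene reached the limit in a comparison when both values were estimated and above 0 and either was over 3 FPKM.

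The inducible Hsp70 is encoded by a pair of intronless genes that lie next to each other on chromosome 17. *Hspa1a* (ENSMUSG00000091971) spans chr17:34969190-34972156 and *Hspa1b* (ENSMUSG00000090877) chr17:34956436-34959238, both on the minus strand of GRCm38, the assembly also called mm10. The 250 bases before their start sites are printed here because the pair shares almost all of them, and those of *Hspb1* because it was the other member with separate intervals. The windows lie at chr17:34972157-34972406 and chr17:34959239-34959488 on the minus strand and at chr5:135887669-135887918 on the plus strand (RefSeq, GRCm38.p6). They run 5′ to 3′ towards the start site, and capitals mark a match to the letters of the HSF1 binding motif.
Hspa1a: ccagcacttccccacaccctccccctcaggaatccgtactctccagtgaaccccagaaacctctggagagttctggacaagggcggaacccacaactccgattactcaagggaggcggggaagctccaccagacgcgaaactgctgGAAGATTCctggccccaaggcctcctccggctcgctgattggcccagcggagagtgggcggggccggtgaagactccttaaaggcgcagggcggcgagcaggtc
Hspa1b: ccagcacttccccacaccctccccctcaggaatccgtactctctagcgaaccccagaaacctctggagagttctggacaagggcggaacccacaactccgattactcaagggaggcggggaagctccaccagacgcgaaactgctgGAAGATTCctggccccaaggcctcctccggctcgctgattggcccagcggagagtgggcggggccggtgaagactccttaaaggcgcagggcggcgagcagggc
Hspb1: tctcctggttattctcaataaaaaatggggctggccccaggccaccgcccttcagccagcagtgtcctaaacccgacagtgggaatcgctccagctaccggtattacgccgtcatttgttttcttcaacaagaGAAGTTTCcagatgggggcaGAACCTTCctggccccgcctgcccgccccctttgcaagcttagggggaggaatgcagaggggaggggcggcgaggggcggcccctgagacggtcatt

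The windows of *Hspa1a* and *Hspa1b* carried the same base at 247 of 250 positions (98.8%). Both held the match GAAGATTC from 104 to 97 bases before the start. In *Hspb1* the match GAAGTTTC stood 117 to 110 bases and GAACCTTC 97 to 90 bases before the start. The search used GAANNTTC and TTCNNGAA, each of which reads the same on both strands, and 12.8% of the 32851 RefSeq promoters held either within 250 bases. Of the 7 members with a promoter entry, 5 held a match in the window of at least 1 start site, the others being *Dnaja1* and *Hsph1*, while *Dnajb1* and *Bag3* held none. The members had 11 start sites with such windows and were counted by gene, whereas the shares of all promoters count each promoter entry. The longer forms GAANNTTCNNGAA and TTCNNGAANNTTC, which overlap the shorter ones, were in none of these windows and in 0.466% of all promoters. With the 50 bases after the start included, 6 of the 7 members held a shorter match, *Bag3* being added, against 15.1% of all promoters. In these 300 bases *Hsph1* also held a longer form, the only 1 of the 7 to do so, against 0.603%. A match of letters describes the sequence and does not show that HSF1 was bound there.

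*Hspa1b* was higher in the WT groups than in every knockout group. Its level was 7.49 FPKM (interval 4.08 to 10.9) in WT PBS and 5.94 FPKM (3.07 to 8.81) in WT ASNase. Without *Gcn2* it was 2.18 FPKM (0.997 to 3.37) under PBS and 3.13 FPKM (1.42 to 4.84) after ASNase, and without *Atf4* it was 3.42 FPKM (1.73 to 5.10) and 1.55 FPKM (0.619 to 2.49). From lowest to highest the groups ran *Atf4*-/- ASNase, *Gcn2*-/- PBS, *Gcn2*-/- ASNase, *Atf4*-/- PBS, WT ASNase and WT PBS, and the intervals of neighbours in this order always overlapped. Separate intervals were found for *Atf4*-/- ASNase against each of the WT groups and for *Gcn2*-/- PBS against WT PBS. *Hspa1a* followed at a much lower level, from 0.152 FPKM in *Gcn2*-/- PBS to 0.695 FPKM in WT ASNase. It never reached the limit of 3 FPKM, and its lower bound was 0 in 3 of the 6 groups.

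The split of reads between these genes was uncertain. Of all 100-base windows of the *Hspa1a* transcript, 47.1% were identical to *Hspa1b*, and 49.9% of the *Hspa1b* windows were identical to *Hspa1a*. A further gene model, *Gm20481*, overlaps *Hspa1a* and was listed at 0.247 to 0.910 FPKM, that is 131% to 207% of the *Hspa1a* value of the same group. With *Hspa1a* and *Hspa1b* added together, the separate intervals of *Hspa1b* remained separate in both comparisons of the design.

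**Figure D1:**
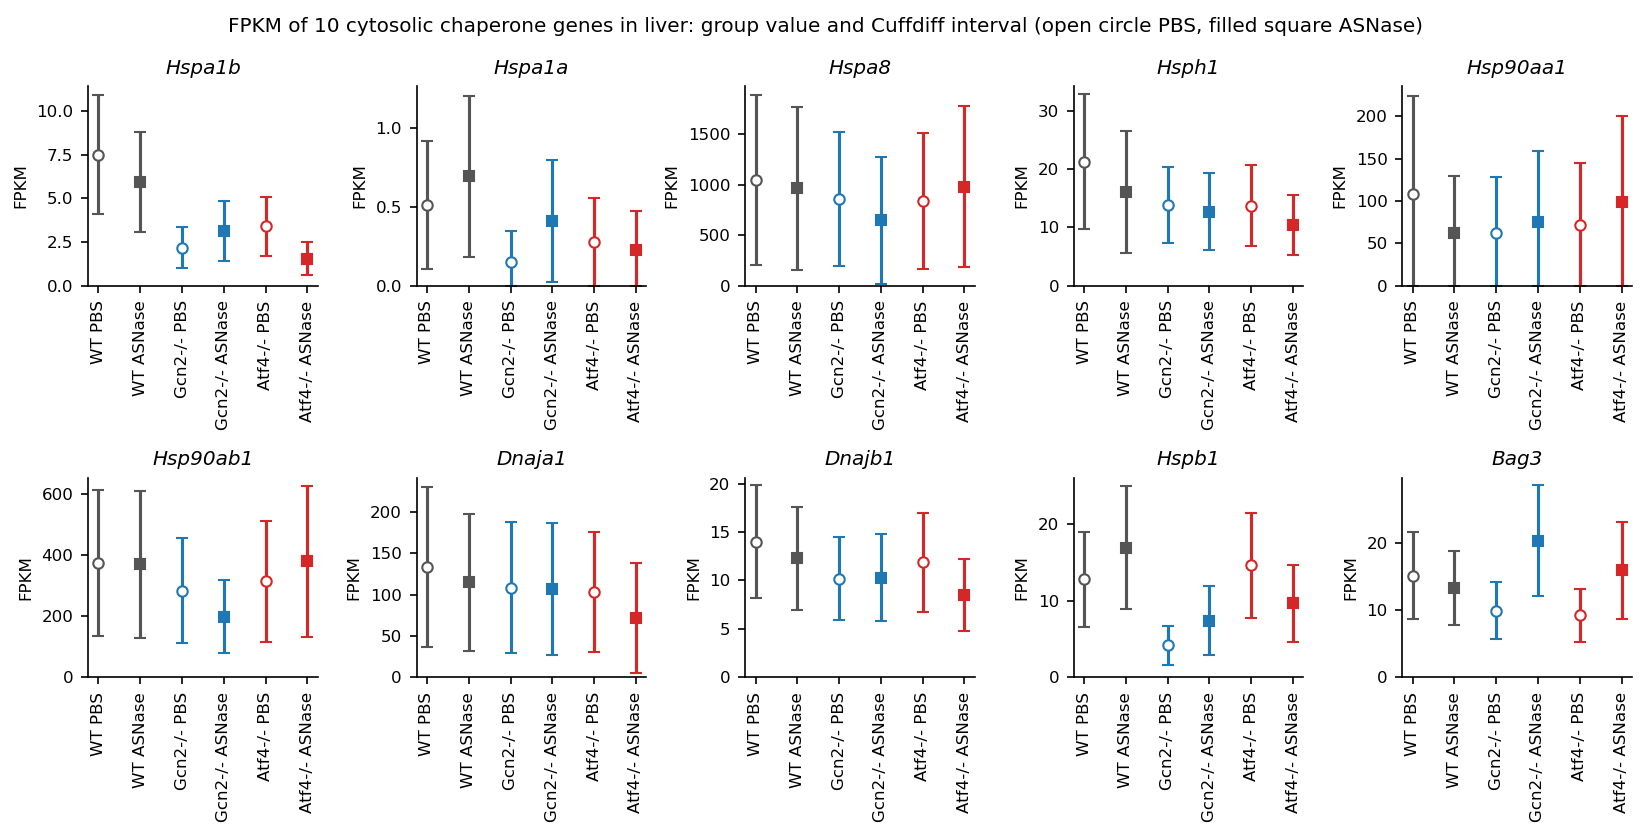
FPKM on linear axes from 0 for the 10 genes in the 6 groups, 1 panel per gene; points are the group values, bars the Cuffdiff intervals, open circles PBS and filled squares ASNase. *Hspa1b* ranged from 1.55 to 7.49 FPKM with both WT groups highest, *Hspb1* was lowest in *Gcn2*-/- PBS at 4.16 FPKM, and the bars of *Hsp90aa1* reached 0 in all 6 groups.

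*Hspa8* (HSC70), the constitutive Hsp70, lies at chr9:40800984-40810087. It was the most abundant member and held 59.8% to 63.4% of the summed FPKM of the 10 genes. WT livers held 1048 FPKM under PBS and 965 FPKM after ASNase, *Gcn2*-/- livers 859 and 647 FPKM, and *Atf4*-/- livers 837 and 980 FPKM. *Gcn2*-/- ASNase was lowest and WT PBS highest, and all intervals overlapped, with upper bounds 76.9% to 96.8% above the values. Per length, *Hspa8* exceeded *Hspa1b* 140-fold in WT PBS and 631-fold in *Atf4*-/- ASNase. *Hspa8* shares 63.4% of its windows with other genes, most of them with the noncoding RNA *Gm26825*.

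*Hsph1* (HSP105), which acts as an exchange factor for Hsp70, went from 21.3 FPKM under PBS to 16.1 FPKM after ASNase in WT, from 13.8 to 12.7 FPKM in *Gcn2*-/- and from 13.7 to 10.4 FPKM in *Atf4*-/- livers. It lies at chr5:149614287-149636376. The WT groups were highest here too, but every pair of groups had overlapping intervals.

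The Hsp90 genes lie at chr17:45567775-45573271 (*Hsp90ab1*) and chr12:110690605-110702728 (*Hsp90aa1*). *Hsp90ab1*, the constitutive form, stood at 375 FPKM under PBS and 370 FPKM after ASNase in WT livers, at 284 and 198 FPKM in *Gcn2*-/- livers, and at 315 and 380 FPKM in *Atf4*-/- livers. *Hsp90aa1*, the inducible form, had 108.5 FPKM under PBS and 62.3 FPKM after ASNase in WT livers, 62.4 and 74.8 FPKM in *Gcn2*-/- livers, and 71.3 and 98.8 FPKM in *Atf4*-/- livers. *Hsp90ab1* and *Hspa8* were both lowest in *Gcn2*-/- ASNase, whereas *Hsp90aa1* was lowest in WT ASNase. The lower bound of *Hsp90aa1* was 0 in all 6 groups, so that none of its differences could exceed the intervals. *Hsp90aa1* shares 47.5% of its windows with other genes, chiefly the processed pseudogene *Gm12346*, which was listed at no more than 0.0686 FPKM.

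The J-domain genes had overlapping intervals in every pair of groups. *Dnaja1*, a partner of Hsp70 in folding and protein import, had 133 FPKM under PBS and 115 FPKM after ASNase in WT livers, 108 and 107 FPKM without *Gcn2*, and 103 and 71.7 FPKM without *Atf4*. *Dnajb1* (HSP40), which stimulates the ATPase of Hsp70, had 14.0 FPKM under PBS and 12.3 FPKM after ASNase in WT livers, 10.2 and 10.3 FPKM without *Gcn2*, and 11.9 and 8.51 FPKM without *Atf4*. Both were highest in WT PBS and lowest in *Atf4*-/- ASNase. *Dnaja1* lies at chr4:40722150-40737149 and *Dnajb1* at chr8:83608193-83612653. *Dnaja1* shares 24.0% of its windows with other genes and overlaps *Smu1*, and *Bag3* overlaps *2610306O10Rik*. The libraries did not keep the strand, so reads of overlapping genes could not be told apart there.

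*Hspb1*, a small heat shock protein that binds unfolding proteins without ATP, lies at chr5:135887919-135889563 and had its lowest levels in the *Gcn2*-/- livers. The level was 12.8 FPKM (6.58 to 19.0) in WT PBS and 17.0 FPKM (8.97 to 24.9) in WT ASNase. It was 4.16 FPKM (1.59 to 6.73) in *Gcn2*-/- PBS and was 7.41 FPKM (2.95 to 11.9) in *Gcn2*-/- ASNase. The *Atf4*-/- groups had 14.6 FPKM (7.76 to 21.5) under PBS and 9.65 FPKM (4.61 to 14.7) after ASNase. The interval of *Gcn2*-/- PBS was separate from those of *Atf4*-/- PBS and WT ASNase, and it overlapped that of WT PBS by a narrow margin. A processed pseudogene, *Hsp25-ps1*, holds 42.7% of the *Hspb1* windows and was listed at 0.798% to 3.02% of the *Hspb1* level.

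*Bag3*, which joins Hsp70 to small heat shock proteins and directs their clients to autophagy, lies at chr7:128523616-128546981. With *Hsp90ab1* it was the member with its highest value in a knockout group. Under PBS it was 15.1 FPKM (8.63 to 21.6) in WT, 9.90 FPKM (5.62 to 14.2) in *Gcn2*-/- and 9.23 FPKM (5.31 to 13.1) in *Atf4*-/- livers. After ASNase it was 13.2 FPKM (7.70 to 18.7) in WT, 20.2 FPKM (12.0 to 28.5) in *Gcn2*-/- and 15.9 FPKM (8.71 to 23.0) in *Atf4*-/- livers. The knockout groups were below WT under PBS and above it after ASNase, but all 15 pairs of intervals overlapped.

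The widths of the intervals set how large a change had to be for intervals not to overlap. With the median interval width of the gene, a fold of 2.49 was needed for *Bag3*, 2.52 for *Dnajb1*, 3.03 for *Hspb1*, 3.10 for *Hsph1* and 3.15 for *Hspa1b*. The abundant genes needed more, 4.46 for *Hsp90ab1*, 6.32 for *Dnaja1* and 9.46 for *Hspa8*. A doubling of any of these genes would therefore leave overlapping intervals at this width, although the 2.05-fold difference of *Bag3* between *Gcn2*-/- ASNase and *Gcn2*-/- PBS exceeded a less strict error of the pair.

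The comparison of ASNase with PBS asked how each strain responded to the loss of asparagine and glutamine. In WT livers 0 of 9 members had separate intervals, against 1.01% of 9084 genes. The median log2 difference of these 9 members was -0.19, 8 of the 9 were lower after ASNase against 51% of all genes, *Hspb1* (0.40) being the exception, and the largest decrease was that of *Hsp90aa1* (-0.80). All log2 differences are of FPKM + 0.1, with the first-named group minus the second, and understate the change of low genes.

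In *Gcn2*-/- livers 0 of 9 had separate intervals, against 4.24% of 9218 genes, and the members ranged from -0.52 to 1.03 with a median of 0.01. *Bag3* had the largest increase, 1.03 on the log2 scale (2.05-fold). This exceeded the combined error of the pair, the root of the summed squared distances from value to upper bound, as did 8.81% of all genes. In *Atf4*-/- livers 0 of 9 members had separate intervals, against 8.03% of 9485 genes. Their median was -0.39, with *Bag3* at 0.77 and *Hspa1b* at -1.09.

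Under PBS, knockouts were compared with WT to see which genes depended on GCN2 or ATF4 without the drug. In *Gcn2*-/- PBS all 9 members that reached the limit, and *Hspa1a* as well, had lower values than WT PBS, and the median of the 9 was -0.60, while 39.9% of the 8920 genes tested were lower and their median was 0.06. Only *Hspa1b* had separate intervals (-1.73, 3.43-fold lower), against 1.2% of all genes. The difference of *Hspb1* was of similar size (-1.60) and exceeded the combined error, as did 2.09% of all genes, and its intervals became separate when the groups were scaled by median ratios. In *Atf4*-/- PBS 8 of the 9 were lower than in WT PBS, with a median of -0.37 against 0.00 for all genes, of which 49.6% were lower. *Hspb1* was the exception at 0.19. No member had separate intervals in this comparison, against 1.28% of 9039 genes, and *Hspa1b* (-1.11) exceeded the combined error, as did 2.08%. These comparisons share the WT PBS group, so that a high value there lowers every member in both.

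Between the knockouts under PBS, *Hspb1* was 3.52-fold higher in *Atf4*-/- than in *Gcn2*-/- livers (1.79). It was the only 1 of 9 members with separate intervals, against 1.25% of 9015 genes. The other 8 differed by -0.10 to 0.62.

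After ASNase, *Hspa1b* was 3.82-fold lower in *Atf4*-/- than in WT livers (-1.87). It was again the only 1 of 9 members with separate intervals, against 9.01% of 9577 genes, and the members had a median of -0.53. *Gcn2*-/- ASNase and WT ASNase differed in 0 of 9 members by separate intervals, against 4.87% of 9423 genes. *Hspb1* (-1.18) exceeded the combined error there, as did 9% of all genes, *Hsp90ab1* and *Hspa1b* were both at -0.90, and *Bag3* was at 0.61. *Atf4*-/- ASNase and *Gcn2*-/- ASNase also differed in 0 of 9 members, against 3.61% of 9355 genes, with *Hsp90ab1* at 0.94 and *Hspa1b* at -0.96. These comparisons share their ASNase groups with each other.

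**Figure D2:**
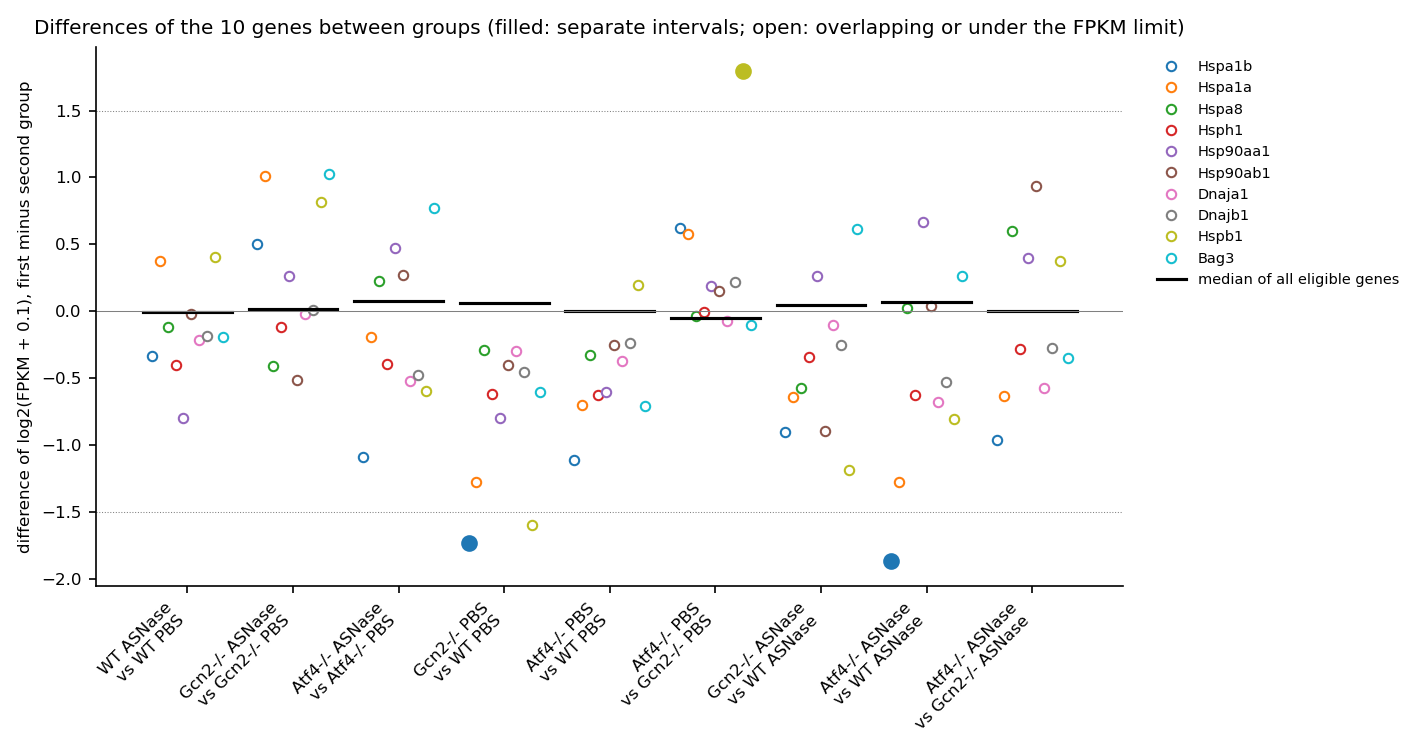
Differences of log2(FPKM + 0.1) between the groups named on the horizontal axis, first minus second; circles are the 10 genes, black bars the median of all genes that reached the limit, and dotted lines 1.5 and -1.5. The filled circles, with separate intervals, are *Hspa1b* at -1.73 and -1.87 and *Hspb1* at 1.79, and no circle is filled in the 3 comparisons of ASNase with PBS.

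The responses to ASNase were also compared between strains, with the error of a difference taken from the intervals of the 4 values. The response of *Bag3* was larger in *Gcn2*-/- than in WT livers by 1.22 (error 1.21), which made it 1 of 9 members over the error, against 6.27% of 9523 genes. The response of *Hspa1b* was lower in *Atf4*-/- than in *Gcn2*-/- livers by -1.59 (error 1.51), again 1 of 9 members, against 5.48% of 9684 genes. Both lay only just outside their error. Between *Atf4*-/- and WT livers 0 of 9 responses differed by more than the error, against 9.52% of 9698 genes.

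Across the 6 groups the members did not form a single profile. Pearson correlations of their log2 levels, given as a description over 6 points that share libraries, ranged from -0.29 to 0.97 over the 45 pairs with a median of 0.29, and 38 of them were positive. The closest pairs were *Hspa8* with *Hsp90ab1* (0.97), the constitutive forms, and *Hspa1b* with *Dnajb1* (0.95), while *Bag3* and *Hsp90ab1* were the farthest apart. Among 9806 genes, those most like the mean standardised profile of the 10 members were *St3gal6* (0.98), *Xlr3a*, *Ces2g*, *Cux1*, *Abi3*, *Cbr2*, *Pomt1*, *Serinc2*, *Tmod4* and *Eefsec* (0.94). For single members the genes most like *Hsp90aa1* were *Ube2m*, *Ahsa1* and *Stip1* (0.96 each), and those most like *Hspa1b* were *Snurf* (0.99), *St3gal6* and *Rbm4*. *Ahsa1* and *Stip1* encode cochaperones of HSP90, but the lower bound of *Hsp90aa1* was 0 in all 6 groups. For each of the other members the most similar gene was on none of the other chaperone lists. Examples are *Mdfic* for *Hspa8*, *Ecsit* for *Hsph1* and *Prkaca* for *Dnaja1*.

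Other chaperone genes were counted by list, and each count over the 9 comparisons is to be read against the 13.5% of all genes with separate intervals at least once. Of the 7 other Hsp70 and Hsp110 genes, 3 reached the limit and 0 had separate intervals in any of the 9 comparisons. The count was 0 of 25 for cochaperones of Hsp70 and Hsp90 and 0 of 14 for the chaperonin TRiC and prefoldin, which fold actin and tubulin. All 14 TRiC and prefoldin genes nevertheless had higher values in *Atf4*-/- ASNase than in *Atf4*-/- PBS, with a median log2 difference of 0.39, while 53.8% of all genes were higher and their median was 0.08. The transcription factor gene *Hsf1* had 5.95 FPKM under PBS and 7.38 FPKM after ASNase in WT livers, 6.47 and 6.05 FPKM in *Gcn2*-/- livers, and 6.99 and 8.35 FPKM in *Atf4*-/- livers. Its intervals overlapped throughout, and 0 of the 4 heat shock factor and regulator genes that reached the limit had separate intervals. A count of 0 of 3 or 0 of 4 cannot be told from that share of all genes.

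Among the other J-domain genes 1 of 13 had separate intervals (7.69%, against 13.5% of all genes). This was *Dnajc12*, whose product is a cochaperone of the aromatic amino acid hydroxylases. It had 9.81 FPKM under PBS and 6.71 FPKM after ASNase in WT livers, 17.0 and 39.7 FPKM in *Gcn2*-/- livers, and 33.7 and 40.4 FPKM in *Atf4*-/- livers. It was thus 3.43-fold higher in *Atf4*-/- PBS than in WT PBS, and after ASNase 5.92-fold higher in *Gcn2*-/- and 6.03-fold higher in *Atf4*-/- than in WT livers. None of the 10 members was higher in a knockout than in WT by separate intervals.

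Separate intervals were also found among other targets of HSF1. *Hmox1* (heme oxygenase 1) rose 3.09-fold with ASNase in *Gcn2*-/- and 3.77-fold in *Atf4*-/- livers, and the immediate early gene *Ier5* rose 3.32-fold and 5.72-fold. *Serpinh1* (HSP47, the collagen chaperone of the ER) was 3.60-fold lower in *Atf4*-/- ASNase than in WT ASNase. *Hmox1* and *Ier5* are under other transcription factors as well as HSF1.

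Chaperones of the other compartments were set beside the cytosolic ones. Of 13 ER chaperone genes, 12 had lower values after ASNase in WT livers (median -0.57), all 13 had higher values in *Gcn2*-/- livers (median 0.92) and 12 had higher values in *Atf4*-/- livers (median 1.38). The medians of all genes in these comparisons were -0.01, 0.02 and 0.08. Separate intervals were found for 3 of the 13 in at least 1 of the 9 comparisons (23.1%, against 13.5% of all genes). *Sdf2l1* rose 3.81-fold in *Gcn2*-/- and 3.45-fold in *Atf4*-/- livers and *Creld2* 3.36-fold and 3.48-fold, and *Dnajb9* went from 34.7 to 87.2 FPKM with separate intervals in *Atf4*-/- livers. *Hspa5* (BiP), the Hsp70 of the ER, was 191 FPKM in *Atf4*-/- PBS and 691 FPKM in *Atf4*-/- ASNase, with overlapping intervals, while *Hspa8* of the cytosol went from 837 to 980 FPKM. Of 9 mitochondrial chaperone and protease genes, 1 had separate intervals (11.1%, against the same 13.5%), *Lonp1*, which rose 2.98-fold with ASNase in *Atf4*-/- livers.

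**Figure D3:**
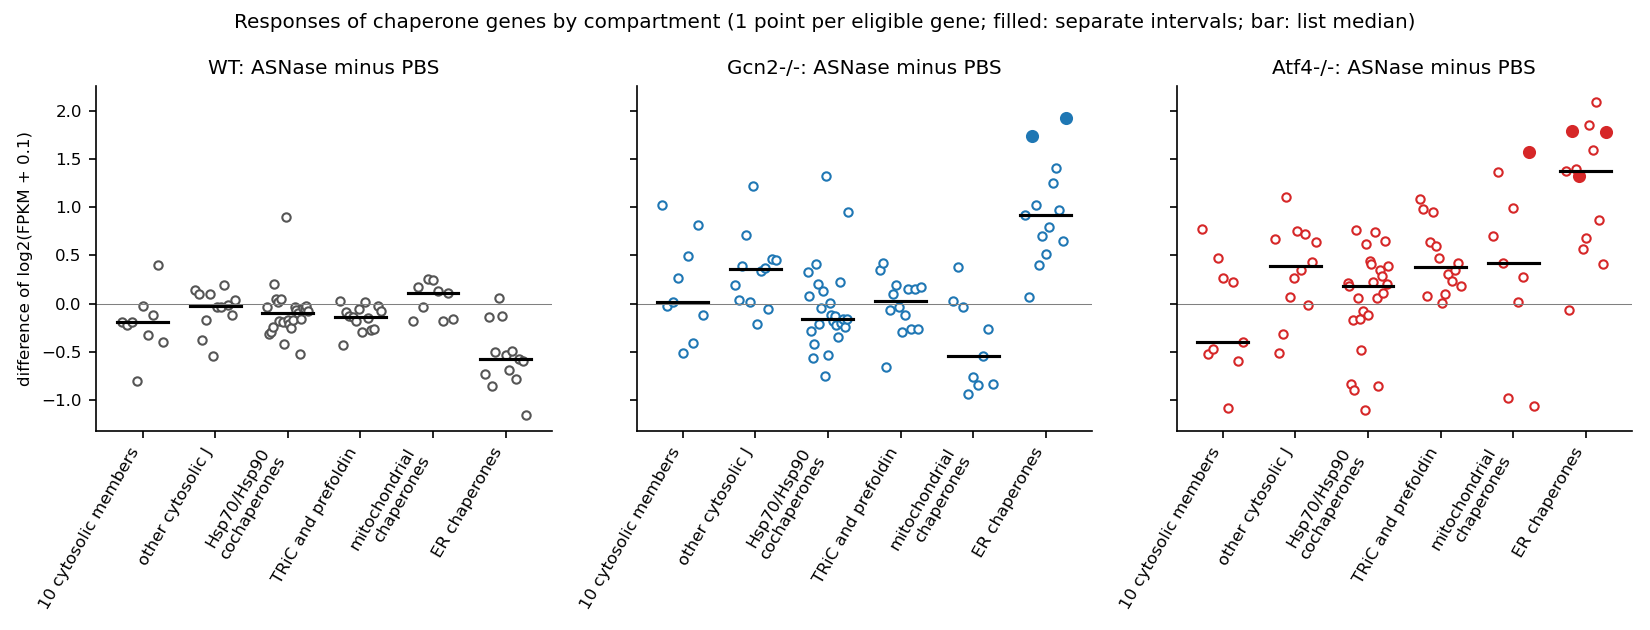
Differences of log2(FPKM + 0.1), ASNase minus PBS, within WT, *Gcn2*-/- and *Atf4*-/- livers for the 10 cytosolic members and 5 other chaperone lists; each point is a gene that reached the limit, filled where its intervals were separate, and bars are medians. The ER chaperones had medians of -0.57, 0.92 and 1.38 in the 3 strains and the cytosolic members -0.19, 0.01 and -0.39.

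Genes of other tissues varied along with the strain difference of *Hspb1* and *Hspa1b*. All 15 skeletal muscle markers examined were over 1 FPKM in both WT groups, against 2 of 15 in both *Gcn2*-/- groups and 12 of 15 in both *Atf4*-/- groups. Their summed level was 1070 FPKM in WT PBS and 1547 in WT ASNase, 10.8 and 12.8 in the *Gcn2*-/- groups, and 90.8 in *Atf4*-/- PBS and 203 in *Atf4*-/- ASNase. *Pvalb* was listed at 0 in both *Gcn2*-/- groups, *Myh4* in *Gcn2*-/- PBS and *Tcap* in *Gcn2*-/- ASNase.

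Small heat shock genes that muscle is known to express followed this pattern in part. Of 5 other small heat shock genes that reached the limit 2 had separate intervals in at least 1 of the 9 comparisons, against 13.5% of all genes. *Cryab* (alpha B-crystallin) was 6.80-fold lower in *Gcn2*-/- PBS and 4.21-fold lower in *Atf4*-/- PBS than in WT PBS, and *Hspb7* was lower in the same comparisons, at 3.73 FPKM in WT PBS, 0.0487 in *Gcn2*-/- PBS and 0.480 in *Atf4*-/- PBS. *Hspb1* departed from the muscle pattern in *Atf4*-/- PBS, where it was 115% of WT PBS while the muscle markers were 8.49%. *Hspb7* departed from it in *Atf4*-/- ASNase, where it was 80.4% of WT PBS while the muscle markers were 19.0%. *Hspa1b* stood at 29.2% of WT PBS in *Gcn2*-/- PBS, at 45.6% in *Atf4*-/- PBS and at 20.8% in *Atf4*-/- ASNase. The muscle markers were at 1.01%, 8.49% and 19.0% in these groups. In WT ASNase *Hspa1b* was at 79.3% and the muscle markers at 145%, and in *Gcn2*-/- ASNase they were at 41.8% and 1.20%. The part of muscle RNA in the levels of *Hspb1* and *Hspa1b* was not tested.

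Markers of other liver cells varied along with *Hspb1* in part. The 5 liver endothelial markers (*Stab2*, *Lyve1*, *Pecam1*, *Clec4g* and *Kdr*), all over 1 FPKM in all 6 groups, summed to 97.9 FPKM in WT PBS and 83.7 FPKM in WT ASNase, to 50.8 and 52.0 FPKM in the *Gcn2*-/- groups, and to 109.9 and 76.1 FPKM in the *Atf4*-/- groups. In percent of WT PBS the sum was 51.9% in *Gcn2*-/- PBS and 112% in *Atf4*-/- PBS, where *Hspb1* was at 32.5% and 115%. In WT ASNase the sum was 85.6% and *Hspb1* was at 133%. Most of the sum was *Clec4g*, which had 64.1 FPKM in WT PBS and 47.7 FPKM in WT ASNase. Of the 5 markers 3 were higher in WT ASNase than in WT PBS, against 49% of all genes, and 2 were lower. All 5 endothelial markers had lower values in *Gcn2*-/- PBS than in WT PBS, as did 39.9% of all genes, and than in *Atf4*-/- PBS, as did 43.8%. Of the 5, 0 had separate intervals in either comparison, against 1.2% and 1.25% of all genes. The 8 markers of Kupffer cells and monocytes and the 5 erythroid markers were likewise all lower in *Gcn2*-/- PBS than in *Atf4*-/- PBS, with sums of 161 against 277 FPKM and 125 against 186 FPKM. Of them 0 had separate intervals there, against the same 1.25% of all genes. Unlike *Hspb1*, both sums were lower in WT ASNase than in WT PBS, at 135 against 240 FPKM and 126 against 217 FPKM. In *Gcn2*-/- ASNase, where *Hspb1* was lower than in WT ASNase, the Kupffer cell and monocyte sum was higher, at 219 FPKM. *Marco* alone made up 118 FPKM of that sum, against 3.45 FPKM in WT ASNase. Of the 8 markers 4 were higher there, against 53.6% of all genes, and 4 were lower. The part of these cells in the level of *Hspb1* was not tested.

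**Figure D4:**
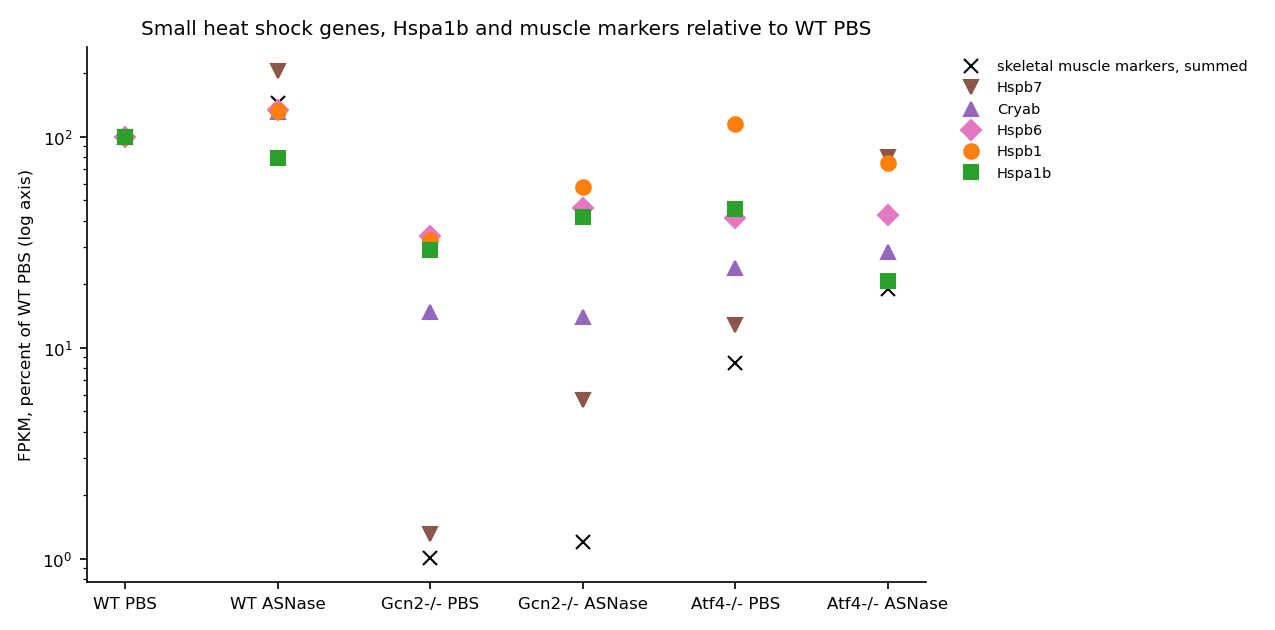
Levels in percent of WT PBS on a log axis for the summed 15 skeletal muscle markers, the small heat shock genes *Hspb7*, *Cryab*, *Hspb6* and *Hspb1*, and *Hspa1b* in the 6 groups; 1 point per group, without error bars. Muscle markers were at 1.01% in *Gcn2*-/- PBS and 8.49% in *Atf4*-/- PBS, and *Hspb1* at 32.5% and 115%.

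Other values of the whole table bear on the group values. Liver genes such as *Ttr* and *Apoa1* were abundant in all 6 groups, while *Alb* was listed at 0 with the status HIDATA, which marks a locus with too much data to estimate. The 4 lung epithelial markers, all over 1 FPKM in WT PBS, summed to 132 FPKM in WT PBS and to at most 2.05 FPKM elsewhere, and pancreatic acinar markers to 67.1 FPKM in WT ASNase and 350 FPKM in *Atf4*-/- ASNase against 5.47 to 16.0 FPKM elsewhere. WT PBS was the highest group for 6 of the 10 chaperone genes, and the part of lung RNA in this was not tested. The level of *Eif2ak4*, the gene of GCN2, was 2.31 and 2.96 FPKM in the groups labelled *Gcn2*-/- and 3.04 and 2.39 FPKM in WT, and that of *Atf4* was 32.3 and 29.3 FPKM in the groups labelled *Atf4*-/- and 50.4 and 63.1 FPKM in WT. A value over a whole gene does not test a deletion of part of it, and the groups are named as labelled. The authors report from read densities that an exon of *Gcn2* was missing in *Gcn2*-/- mice and that *Atf4* was absent in *Atf4*-/- mice. They also assessed *Atf4* by RT-qPCR.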

How the data were processed

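Liver mRNA of 18 mice in 6 groups of 3 was measured by RNA-Seq. The authors prepared poly-A libraries, aligned reads to mm10 with TopHat and estimated expression with Cuffdiff. The deposited table holds FPKM values, 1 per group for 37303 genes, with interval bounds in FPKM and a status. The level of the intervals is not given in the sources used here and the table holds no read counts, so precision was taken from the intervals.

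Groups were compared on log2(FPKM + 0.1), for genes whose status was OK and value above 0 in both groups and whose higher value exceeded 3 FPKM. Intervals were separate when they did not overlap. Because bounds are cut at 0, the combined error used the distance from value to upper bound. List genes are named when their intervals were separate and the absolute log2 difference was over 1.5, at most 4 per list and comparison. *Dnajb9* and *Hspa5* are named in addition, chosen after their values were seen. Members and lists were chosen with earlier results of these data known. Shared 100-base windows came from GENCODE transcripts. Of the 102 list genes all were matched, and *Hspa14*, with more than 1 row, entered by the higher. A result among the other HSF1 targets is not reported here. Alternatives were other pseudocounts (0.01 and 1), an FPKM limit of 1 or none, median-ratio scaling, the combined error, and *Hspa1a* and *Hspa1b* summed. Python 3.11.15, pandas 2.3.3, numpy 2.4.6 and matplotlib 3.10.9 were used.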

Additional observations from a re-analysis of the deposited data

Results flagged for a closer look

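The response of *Bag3* to ASNase was 1.03 on the log2 scale in *Gcn2*-/- livers and -0.19 in WT livers, and the difference of 1.22 exceeded its error of 1.21. It exceeded its error also with a pseudocount of 1 (1.14, error 1.13) and after median-ratio scaling (1.23, error 1.21).

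The response of *Hspa1b* was -1.09 in *Atf4*-/- livers and 0.50 in *Gcn2*-/- livers, and the difference of -1.59 exceeded its error of 1.51. With *Hspa1a* and *Hspa1b* summed the difference was -1.59 and its error 1.65, so that it was then within the error. With 1 pooled value per group, samples could not be examined for outliers.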

How the results depend on the processing

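No paired analysis was possible because the columns of the table are pooled over the 3 libraries of a group and carry no replicate number, and leaving out a replicate was not possible for the same reason. Of 621 differences of single members under the alternatives, 616 kept their side of the rule and moved by less than their error. Of the other 5, 4 had overlapping intervals but exceeded the combined error, and only 1 became separate, *Hspb1* in *Gcn2*-/- PBS against WT PBS after median-ratio scaling. Among the separate differences 0 ceased to be separate and 0 changed sign. Only median-ratio scaling and the sum of *Hspa1a* and *Hspa1b* could have ended a separation. Pseudocounts do not enter the overlap of intervals, lower FPKM limits only add genes, and the combined error is the looser rule. With the combined error in place of separate intervals, the members counted were 1 in the *Gcn2*-/- response to ASNase (*Bag3*), 2 in *Gcn2*-/- PBS against WT PBS, 1 in *Atf4*-/- PBS against WT PBS and 1 in *Gcn2*-/- ASNase against WT ASNase. The combined error also counted 1 in *Atf4*-/- PBS against *Gcn2*-/- PBS (*Hspb1*) and 1 in *Atf4*-/- ASNase against WT ASNase (*Hspa1b*), as separate intervals did. Over all genes that rule counted 151, 812 and 1408 for the responses of WT, *Gcn2*-/- and *Atf4*-/- livers, in place of 92, 391 and 762. It counted 186, 188 and 219 for *Gcn2*-/- against WT, *Atf4*-/- against WT and *Atf4*-/- against *Gcn2*-/- under PBS, in place of 107, 116 and 113, and 848, 1474 and 720 for the same pairs after ASNase, in place of 459, 863 and 338. By that rule at least 1 difference was found for 1 of 25 cochaperone genes, 2 of 14 TRiC or prefoldin genes and 1 of 4 heat shock factor or regulator genes. The counts were 3 of 9 for mitochondrial and 7 of 13 for ER chaperone genes. The share of all genes over this error at least once is not given here, and the 13.5% belongs to the stricter rule. In single comparisons 1.66% to 15.4% of all genes exceeded the error, so these counts are not read as a result about the lists. Median-ratio scaling gave 2 members with separate intervals in *Gcn2*-/- PBS against WT PBS, *Hspb1* being added, both over 1.5 on the log2 scale. With a pseudocount of 1, 0 members were over 1.5 in *Gcn2*-/- PBS against WT PBS and in *Atf4*-/- ASNase against WT ASNase, because this pseudocount shrinks the fold of low genes. The intervals of *Hspa1b* do not depend on the pseudocount. With *Hspa1a* and *Hspa1b* summed, 0 members differed in response between *Atf4*-/- and *Gcn2*-/- livers. The FPKM limits of 1 and none and a pseudocount of 0.01 moved no count of members or list genes by over 1.5 times. The widths of the intervals, which are of the order of a value's own size for *Hspa8* and *Hsp90aa1*, limit what the table can show for abundant members.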

Other observations

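The ratio of *Hspa1b* to *Hspa1a*, both in FPKM, was lower with ASNase than with PBS in each strain, at 14.6 and 8.54 in WT PBS and WT ASNase, 14.3 and 7.63 in *Gcn2*-/- PBS and *Gcn2*-/- ASNase, and 12.4 and 6.79 in *Atf4*-/- PBS and *Atf4*-/- ASNase. The levels of *Hspa1a* were all under 1 FPKM, and their intervals overlapped. The small heat shock gene *Hspb8*, a partner of BAG3, had 94.9 FPKM under PBS and 94.1 FPKM after ASNase in WT livers, 99.2 and 169 FPKM in *Gcn2*-/- livers, and 112 and 208 FPKM in *Atf4*-/- livers. Its values after ASNase were higher than under PBS in both knockouts, as were those of *Bag3*, and its intervals overlapped in all of the comparisons.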
